A study of Arabidopsis thaliana with 6 samples.

Results

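The 510 sites described here are pooled RGA-GFP ChIP-seq peaks that were also called in wild type plants without the tagged protein. The authors' pooled list, called from the combined RGA-GFP libraries against the combined wild type libraries, holds 8112 peaks. The sites were chosen by the wild type calls: a pooled peak was taken as shared where at least 1 bp of it was covered by a peak of any of the 3 wild type lists. This chose 510 peaks, 6.29% of the pooled list (exact 95% binomial interval 5.77 to 6.84%, which covers counting error only), and left 7602 remaining pooled peaks. The rule reads the pooled list and the wild type lists, so every wild type value and every pooled fold at these sites describes the choice and was not tested.

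Chromatin was taken from inflorescence apices of Arabidopsis thaliana in the Landsberg erecta background and precipitated with anti-GFP beads. The 3 RGA-GFP libraries came from plants that carried RGAp:GFP-rga-delta17, a GFP fusion of RGA made insensitive to gibberellin by a deletion and driven by the promoter of RGA. The 3 wild type libraries came from plants without GFP, put through the same precipitation as the control without epitope. Each library is a biological replicate made from 1 to 2 g of apices, so it pools the apices of many plants, and the number of transgenic lines is not given in the sources used here. Only peak lists and a gene table were used, with no expression values, so the labelled tissue could not be checked against marker genes.

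RGA is a DELLA protein, a nuclear repressor of growth that gibberellin marks for destruction. DELLA proteins have no DNA-binding domain that is known to act alone. They reach chromatin through partners such as INDETERMINATE DOMAIN zinc finger proteins, and they bind and restrain others, such as the phytochrome-interacting factors and the JAZ repressors of jasmonate signalling. In ChIP-seq, open and highly transcribed chromatin is known to be recovered to some degree with any antibody, and a precipitation from plants without the epitope records what is recovered that way.

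Without duplicates, 14644122, 15704296 and 16745139 tags were kept in the RGA-GFP libraries, against 10014730, 8808462 and 3999159 in the wild type libraries. Duplicates took 39.8%, 32.4% and 39.6% of the tags of the RGA-GFP libraries, against 63.4%, 34.9% and 62.1% of those of wild type libraries 1, 2 and 3. The wild type lists stand apart from each other in how many of the shared peaks they supply. List 1 overlapped 456 pooled peaks (5.62% of the pooled list), list 3 overlapped 151 (1.86%) and list 2 overlapped 28 (0.345%). The library with the fewest duplicates thus supplied the fewest shared peaks, and the part of duplicates or depth in these counts was not tested. Without wild type library 1, 164 of the 510 sites remained shared. Without library 2 or library 3 there were 504 and 463.

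At the shared sites the tag pileup was high in both genotypes, and RGA-GFP libraries were the higher ones at most of them, a direction that the pooled call favours. Pileup is the number of tags, each extended to 300 bp, that cover the summit of a peak. To compare libraries of different depth it is given here as RPM, the pileup scaled to 1000000 tags kept in the library. The median over the shared sites was 14.5, 13.3 and 11.5 RPM in RGA-GFP libraries 1, 2 and 3. In the wild type libraries it was 7.39 RPM over the 456 sites called in library 1, 7.04 over the 28 called in library 2 and 10.0 over the 151 called in library 3. Those wild type medians hold only sites where that library had a peak, and no such peak lay below 5.89, 6.47 and 8.0 RPM in wild type libraries 1, 2 and 3.

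At 476 of the 510 sites (93.3%) all RGA-GFP libraries with a peak exceeded all wild type libraries with a peak in RPM. By the single-list fold, the ratio of the summit pileup to the background of the same library, this held at 429 (84.1%), and at 81 the genotypes overlapped. Each site had entered the pooled list because combined RGA-GFP exceeded combined wild type, so these counts describe the choice. At 399 of the sites only 1 wild type library had a peak to compare. The remaining pooled peaks have no wild type peak, so no such count exists for them. The ratio of the mean RGA-GFP pileup to the mean wild type pileup had a median of 1.68 (quartiles 1.43 and 1.92) and ran between 0.686 and 3.09. Measured against wild type library 1 alone the median ratio was 1.74, against library 2 it was 2.105 and against library 3 it was 1.38. Each of these medians covers only the sites called in that library (456, 28 and 151), so the sets of sites differ. Of the 34 sites where the genotypes overlapped, 29 had a peak in wild type library 3, the shallowest library.

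The ratio lay below 1 at 6 sites. The lowest was at AT2G37440, annotated as a DNase I-like protein (chromosome 2, 15721622 to 15722055). Its pileup was 10.9, 9.55 and 6.81 RPM in the RGA-GFP libraries and 13.3 RPM in wild type library 3, the only wild type library with a peak there. The other sites below 1 lay at AT1G10650, AT2G23450, AT2G27830, ACI1 and AT5G49560. The first 4 of the 5 also had their wild type peak in library 3, and AT5G49560 had it in library 1.

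The pooled call itself sets a wild type level beside each RGA-GFP summit. The authors' pooled fold is the ratio of the combined RGA-GFP pileup, scaled to the depth of wild type, to the combined wild type level at the summit, and that level can be recovered from the deposited fold and pileup. The combined pileup at shared sites had a median of 198 extended tags in RGA-GFP, against an implied 115 (quartiles 104 and 128) in wild type. At the remaining pooled peaks the RGA-GFP median was 135, against an implied 77.0 (quartiles 71.1 and 86.0) in wild type. Both quantities were therefore higher at the shared sites, and the fold, which is their ratio, was close to that of the remaining peaks. Its median was 1.69 at shared sites (quartiles 1.55 and 1.86, range 1.25 to 2.57) and 1.70 at the remaining peaks (quartiles 1.57 and 1.87, highest 3.54). A pooled fold of 2 or more was reached by 68 shared peaks (13.3%) and 1100 remaining peaks (14.5%).

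**Figure D1:**
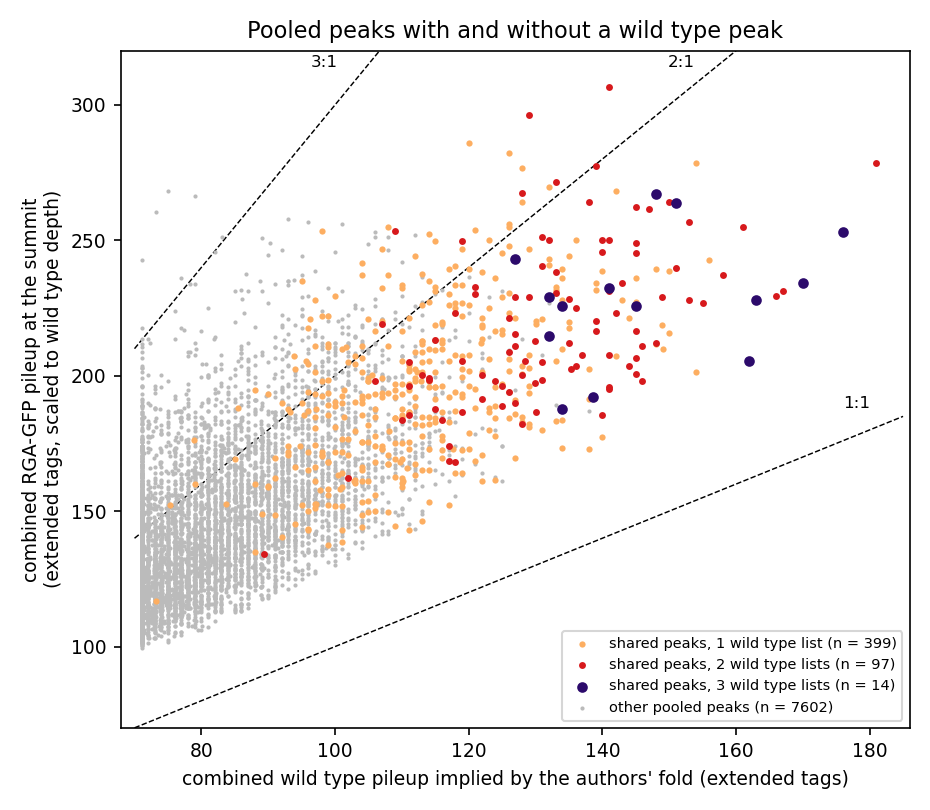
Each point is a pooled peak, placed by the combined wild type pileup implied by the authors' fold (horizontal axis, extended tags) and by the combined RGA-GFP pileup at the summit (vertical axis, extended tags scaled to the wild type depth); dashed lines mark equal levels and ratios of 2 and 3. Shared peaks, coloured by the number of wild type lists that hold them, have a median implied wild type pileup of 115, against 77.0 for the remaining peaks in grey, and the 14 peaks in all 3 wild type lists lie toward the right.

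A wild type level at the genome-wide minimum of 71.1, the level the caller uses where wild type tags are no denser than average, was found at none of the shared peaks and at 2579 remaining peaks (33.9%). The implied level comes from the same wild type libraries as the calls that define a shared peak. These counts therefore describe the choice and were not tested. At the upper end the level and the calls went together. Among pooled peaks with an implied wild type level of 120 or more, 196 of 220 (89.1%) were shared. At 100 or more it was 427 of 947 (45.1%). Of the remaining pooled peaks, 62 (0.816%) had an implied level as high as the median shared peak, although no wild type list holds a peak there.

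Shared peaks were concentrated among the tallest RGA-GFP peaks. A shared site needed a wild type peak and an RGA-GFP pileup above the wild type level, which favours the higher bins. The counts below therefore describe the choice and were not tested. With the pooled list cut into 10 bins of nearly equal size by combined RGA-GFP pileup, bin 10 held 332 of the 510 shared peaks, which is 40.9% of the peaks in that bin. Bin 9 held 102 (12.6% of the bin), bin 8 held 42 (5.18%) and bin 7 held 22 (2.71%). The lower 6 bins held the rest, and no bin below bin 6 had a share above 0.247%. Within bin 10, shared peaks had a lower median pooled fold, 1.78 against 2.14 for the remaining peaks, beside a higher implied wild type pileup of 121 against 96.

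**Figure D2:**
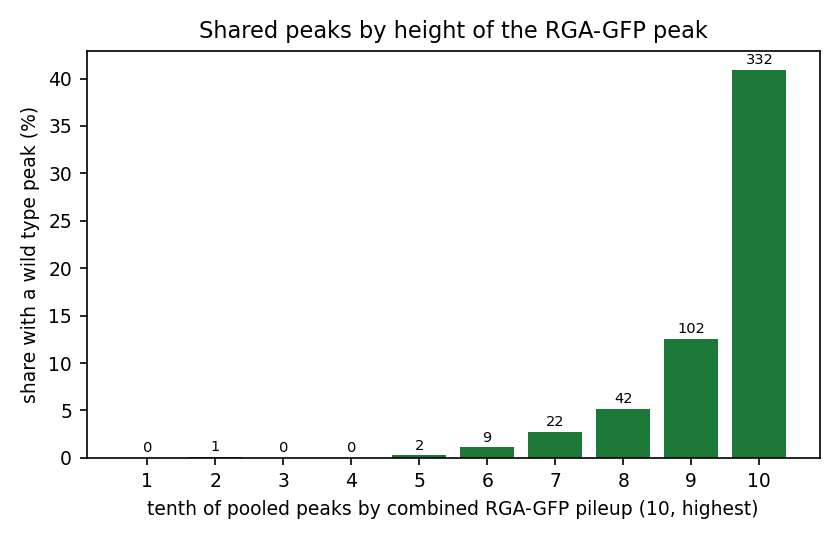
Bars give the share (%) of pooled peaks that are also called in wild type, in 10 bins of the pooled list ordered by combined RGA-GFP pileup, with the number of shared peaks above each bar. The share is 40.9% in the highest bin (332 peaks) and at most 0.247% in each of the lowest 5. The rule and the pooled call favour the higher bins.

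The single RGA-GFP lists were called with no control and were not read by the rule. They are not independent of the choice, since the pooled list was called from the same 3 libraries combined. In them the shared sites were found more often and with higher folds than the remaining pooled peaks. All 3 RGA-GFP lists held a peak at 507 of the 510 shared sites (99.4%), where 77.4% of all pooled peaks and 5774 of the remaining ones (76.0%) met the same condition. The exceptions were peaks at DRT112, the plastocyanin gene, at AT3G56408, an RNA gene, and at AT3G61820, which encodes an aspartyl protease. By library, 99.6%, 100% and 99.8% of shared peaks were found in RGA-GFP lists 1, 2 and 3, against 87.7%, 89.9% and 81.8% of the remaining peaks. The difference averaged 13.3 ± 4.11 percentage points (SD, n = 3 libraries).

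The background behind the single-list fold is that of the same library within 10000 bp, so it is a different ratio from the pooled fold. Its median at shared peaks was 3.33, 3.19 and 2.83 in RGA-GFP libraries 1, 2 and 3, against 2.29, 2.23 and 2.03 at the remaining peaks. The difference of the medians averaged 0.938 ± 0.123 and that of the summit pileup 5.16 ± 0.919 RPM (SD, n = 3 libraries each). All 3 libraries had the higher value at shared sites in each of these 3 comparisons, and each gave p = 0.25 in an exact sign-flip permutation test over libraries, two-sided, which is the smallest p that 3 libraries can give. A pooled peak had to exceed the wild type level, so a site with much wild type pileup entered the pooled list only with more RGA-GFP pileup. The differences in share found, fold and pileup cannot be told apart from that condition. The tests therefore give no independent support for a difference between shared and remaining peaks. With the pooled list limited to a −log10 q of at least 10, the difference in the share found shrank to 1.32 percentage points, while the difference in fold was 0.766.

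**Figure D3:**
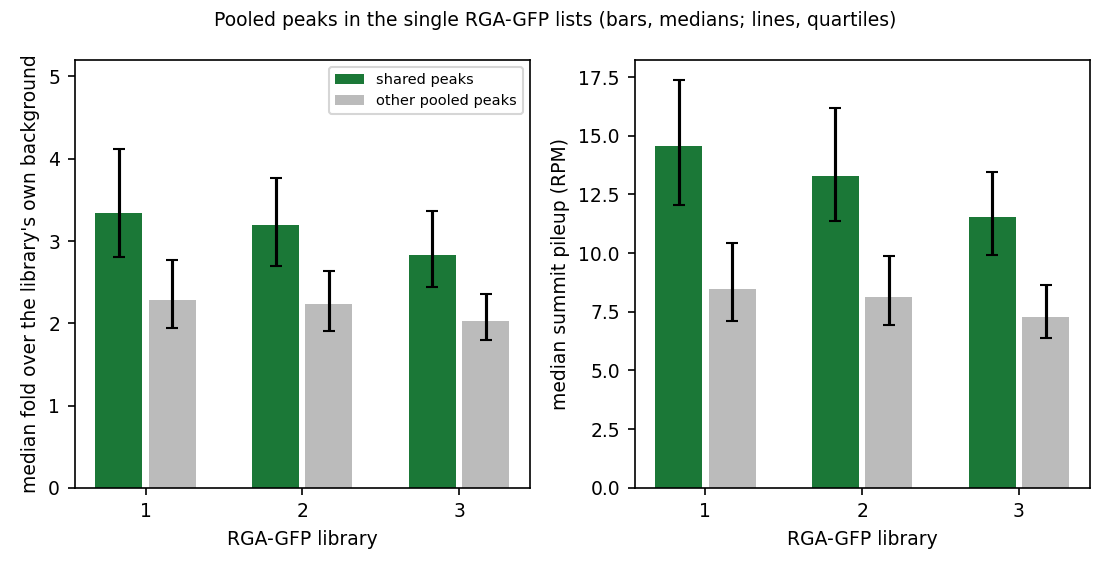
Bars are medians and lines quartiles over pooled peaks found in each single RGA-GFP list, of the fold over the library's own background (left) and of the summit pileup in RPM (right), for shared peaks in green and the remaining pooled peaks in grey. In all 3 libraries the shared peaks have the higher median, with folds of 3.33, 3.19 and 2.83 against 2.29, 2.23 and 2.03.

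Among the 507 shared sites found in all 3 RGA-GFP lists, the mean fold ran between 1.74 and 6.27, with a median of 3.13 and a median SD over libraries of 0.290. Library 3 gave the lowest of the 3 folds at 419 of them. The highest mean fold belonged to AGL44, a MADS-box gene known for root responses to nitrate. Its site (chromosome 2, 6018041 to 6018633) had folds of 7.05, 6.39 and 5.39 in the RGA-GFP lists, against 2.88 and 3.28 in wild type lists 1 and 3. The next were IAA4, an auxin-induced repressor gene, with a mean fold of 5.78 ± 0.68, and LCR32, with 5.73 ± 0.72 (SD, n = 3 each).

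Shared peaks were longer than the remaining ones, with a median of 616 bp against 473 bp, and 87 (17.1%) against 550 (7.23%) reached 1000 bp. The overlap rule favours longer peaks, and length also rose with pileup. The remaining peaks had a median of 368 bp in the lowest pileup bin and 683 bp in bin 10. Within bin 10 shared peaks were shorter, at 620 bp, as in bin 7, at 434.5 against 522 bp. In bins 9 and 8 they were longer, at 612.5 against 594 bp and 698 against 544 bp. A difference in length apart from pileup and the rule was not tested. The longest shared peak, 3560 bp, lay over AT5G60400, MIR391 and AT5G60390 on chromosome 5. On chromosome 5 lay 149 shared peaks (29.2%) and 1642 remaining ones (21.6%), and each of the other 4 chromosomes held a smaller share of the shared than of the remaining peaks. Summits differed in position between the genotypes. The median distance from the pooled summit to the summit of the overlapping peak was 15, 14.5 and 18 bp in the RGA-GFP lists, against 74, 107 and 76 bp in the wild type lists. The pooled summit is built from RGA-GFP tags, so the shorter distance in RGA-GFP is part of its construction.

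Most wild type peaks lay outside the pooled list, and the strongest of them all did. The pooled list was called against the combined wild type, so a strong wild type peak entered it only where RGA-GFP was higher still. The values below are a description tied to that call. Of the 972, 285 and 527 peaks in wild type lists 1, 2 and 3, 456 (46.9%), 28 (9.82%) and 150 (28.5%) overlapped a pooled peak. The highest single-list fold among these was 3.40, 2.73 and 4.12, whereas wild type peaks outside the pooled list reached 11.3, 11.8 and 14.6. The outside peaks above the highest inside value numbered 54, 98 and 94. The median fold was 2.09 inside and 2.15 outside in list 1, 2.06 and 2.41 in list 2, and 2.72 and 2.85 in list 3. The median pileup was 7.39 RPM inside and 8.99 outside in list 1, 7.04 and 12.7 in list 2, and 10.0 and 15.8 in list 3, so in all 3 lists the outside peaks were the higher in both measures.

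Of the shared sites, 399 overlapped a peak in 1 wild type list, 97 in 2 lists and 14 in all 3. With more wild type lists the medians of the pooled fold were 1.73, 1.63 and 1.59, and those of the implied wild type pileup were 111, 131 and 143. The median RGA-GFP single-list fold was 3.002, 3.54 and 3.58 in the same order. These groups are set by the wild type calls and are given as a description.

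The 14 sites in all 3 wild type lists were also in all 3 RGA-GFP lists. Of these, 2 lay in no gene window. At 13 of the 14 all RGA-GFP libraries exceeded all wild type libraries in RPM, and at 8 of the 14 the same held for the single-list fold. The exception in pileup was AT1G70780, a gene the files leave without a description (chromosome 1, 26694551 to 26695268), with 16.1, 14.9 and 12.5 RPM in RGA-GFP and 7.89, 7.04 and 13.0 in wild type. Wild type library 3 there lay above RGA-GFP library 3.

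The highest mean wild type fold of the 14 was at AGP15 (AT5G11740), which encodes an arabinogalactan protein, a heavily glycosylated protein of the cell surface (chromosome 5, 3783867 to 3784235). The pileup was 22.5, 21.7 and 18.0 RPM in RGA-GFP, against 12.8, 7.72 and 15.0 in wild type. The groups did not overlap, and wild type library 2 was the lowest of the 6. The pooled fold was 1.43.

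CAT6, an amino acid transporter gene (chromosome 5, 1377877 to 1378186), had 20.5, 16.2 and 14.6 RPM in RGA-GFP and 8.49, 9.08 and 12 in wild type. SHOT1, a gene for a mitochondrial transcription termination factor (chromosome 3, 22327927 to 22328481), had 22.8, 21.3 and 17.56 in RGA-GFP and 9.39, 8.40 and 10.3 in wild type. EXGT-A3, which encodes a xyloglucan-modifying enzyme of the wall (chromosome 2, 383135 to 383824), had 24.4, 19.7 and 19.9 in RGA-GFP and 9.99, 7.04 and 9.75 in wild type. None of these sites showed overlap between the genotypes in RPM. In single-list folds CAT6 did, with 3.25, 2.90 and 2.83 in RGA-GFP and 2.15, 2.67 and 3.30 in wild type, where wild type library 3 was the highest of the 6. EXGT-A3 had the highest ratio of mean pileups of the 14, at 2.40.

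PEPR1, the receptor gene for the danger peptide AtPep1, had 19.5, 18.7 and 14.6 RPM in RGA-GFP and 6.89, 6.70 and 12.8 in wild type (chromosome 1, 27483897 to 27484589). LBD41, a gene of the LOB domain family, had 19.1, 16.9 and 14.5 in RGA-GFP and 10.4, 7.04 and 14 in wild type (chromosome 3, 537759 to 538182). At both, wild type library 3 stood well above the other wild type libraries and just below RGA-GFP library 3 in RPM, and just above it in the single-list fold (3.58 in RGA-GFP and 3.63 in wild type at PEPR1, 3.03 in RGA-GFP and 3.19 in wild type at LBD41). UBQ11, a polyubiquitin gene, had 14.5, 12.5 and 12.3 in RGA-GFP and 9.69, 8.06 and 9.25 in wild type (chromosome 4, 2588595 to 2589240). Polyubiquitin genes are near copies of each other, and so are UGT73B2 and its neighbour UGT73B3, another site of the 14, so reads there are uncertain in origin.

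**Figure D4:**
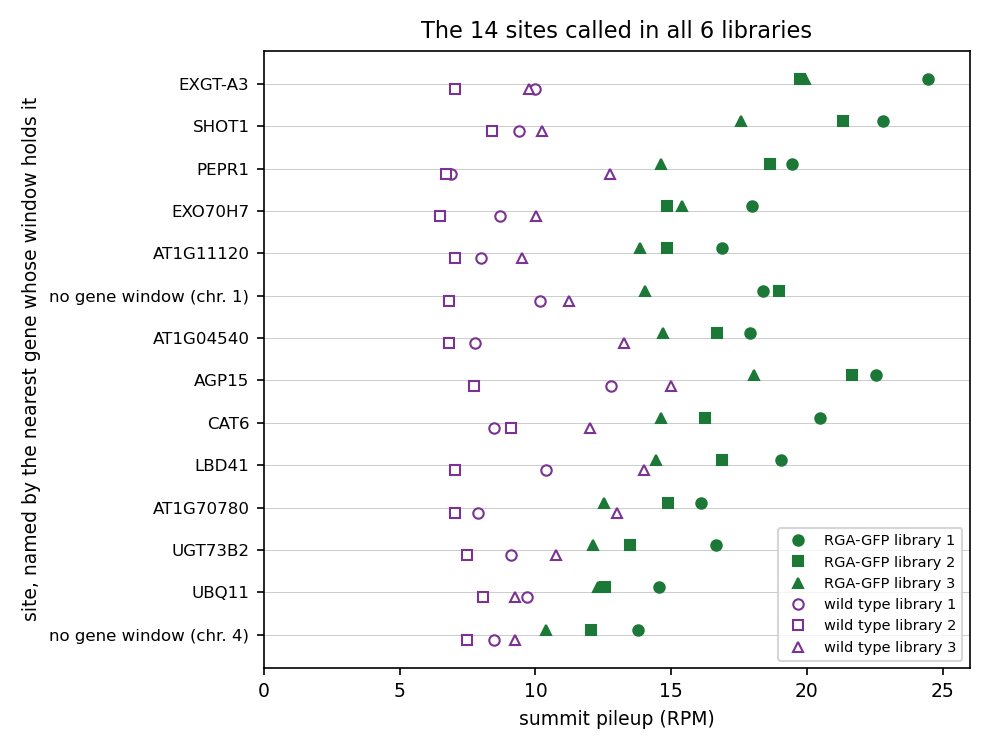
Summit pileup in RPM (horizontal axis) at the 14 sites called in all 6 libraries, with filled green symbols for the RGA-GFP libraries and open purple symbols for the wild type libraries, ordered by the ratio of mean pileups. RGA-GFP libraries lie to the right of all wild type libraries at every site but AT1G70780.

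The shared sites with the highest pooled fold were those where the RGA-GFP pileup was tall and a wild type peak was nonetheless called. They were named for this value, so it is a description. LCR32 (AT2G28405), which encodes a small cysteine-rich protein, headed the list with a pooled fold of 2.57 (chromosome 2, 12152048 to 12152672). Its pileup was 21.7, 19.7 and 16.8 RPM in the RGA-GFP libraries and 6.99 in wild type library 1, and libraries 2 and 3 had no peak. AT5G13100 followed with 2.46 (chromosome 5, 4156108 to 4157815), with 19.1, 16.5 and 15.6 RPM in RGA-GFP and 9.50 in wild type library 3.

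Then came a site in no gene window (chromosome 1, 23895242 to 23896133) with 2.37, and the receptor-like kinase genes RLK (AT5G67280) with 2.35 and AT1G05700 with 2.34. The list continued with IDD1 and CIPK15, a kinase gene of calcium signalling, at 2.31 each, AGK2, a guanylate kinase gene, at 2.30, SCL3 at 2.29, and a further site outside gene windows (chromosome 2, 15099109 to 15100538) at 2.28. At all 10 the RGA-GFP libraries lay above the wild type libraries with a peak, in pileup and in fold.

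At the low end of the pooled fold stood SRC2, a gene regulated by cold, at 1.25 (chromosome 1, 2928904 to 2929556), and WRKY11, a defence regulator gene, at 1.26 (chromosome 4, 15289452 to 15289783). UGT73B2 at 1.27, AT1G29980 at 1.29 and AT3G61820 at 1.29 came next. SRC2 had 13.8, 11.8 and 11.4 RPM in RGA-GFP and 8.69 in wild type library 1. These are also the values of a neighbouring shared peak in the window of SRC2 (chromosome 1, 2927435 to 2928743, pooled fold 1.60), since both meet the same single-list peaks. In this way 27 of the 510 shared peaks had the same strongest RGA-GFP peaks as another shared peak, and their single-list values count 1 peak more than once. AT3G61820 had no peak in RGA-GFP list 1, 8.47 and 9.38 RPM in lists 2 and 3, and 7.39 in wild type library 1.

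At the edge of the rule, the smallest overlaps with a wild type peak were 3 bp at LOX4, 4 bp at TOE3 and 24 bp at HOT5. The nearest misses were gaps of 7 bp at AT1G02360, 10 bp at WRKY40 and 11 bp at AT1G79060. Pooled folds just inside were 1.46, 1.61 and 1.41, and those just outside were 1.46, 1.46 and 2.24.

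The RGA gene itself is among the shared sites, and its sequence is also carried by the transgene. Its peak (chromosome 2, 258703 to 261019) had a combined RGA-GFP pileup of 307, the highest of the whole pooled list. The libraries gave 32.3, 29.0 and 26.6 RPM in RGA-GFP, against 11.5 and 12 in wild type libraries 1 and 3, and library 2 had no peak. The pooled fold was 2.17. In single-list folds the genotypes were closer, with 3.44, 3.29 and 3.32 in RGA-GFP and 2.90 and 2.92 in wild type. Tags from the native gene and from the transgene cannot be told apart. The window of RGA held 3 further pooled peaks, with pooled folds of 1.61, 2.45 and 2.03, and none of them overlapped a wild type peak.

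By the authors' windows, which run up to 3000 bp upstream and 1500 bp downstream of the coding sequence, 719 of the 8522 genes with a pooled peak had a shared one (8.44%). The shared peaks were the only pooled peaks of 339 of these genes, and 380 also had a peak not called in wild type. A shared peak lay in the windows of 2 or more genes in 267 cases (52.4%) and in none in 29 (5.69%), close to the 48.0% and 6.70% of the remaining peaks. By class of gene the shares were 687 of 8187 protein-coding genes (8.39%), 14 of 168 tRNA genes (8.33%), 3 of 44 miRNA genes (6.82%), 11 of 104 genes of other RNA (10.6%), 3 of 15 snoRNA genes (20%) and 1 of 4 snRNA genes (25%). The windows of 36 genes held more than 1 shared peak, and SMT2, a sterol methyltransferase gene, had 3.

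The gene lists described next were chosen with earlier results of these data known, so their counts carry no test and are set beside the 8.44% of all genes with a pooled peak. A listed gene was counted where a shared peak lay in its window, even where another gene lay nearer. Most of the counts rest on wild type library 1: without it, 230 of the 8522 genes (2.70%) had a shared peak. The JAZ repressors, which hold back jasmonate responses until the hormone triggers their destruction, had a shared peak at 6 of the 7 genes with a pooled peak (85.7%), and at 2 of the 7 without wild type library 1. The 7 peaks of these 6 genes had a median pooled fold of 1.54 and a median single-list fold of 3.38 in RGA-GFP, against 1.69 and 3.13 over all shared sites. Each of the 7 peaks had all RGA-GFP libraries above any wild type library with a peak in pileup, as 93.3% of all shared sites did.

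JAZ6 (AT1G72450) had the highest implied wild type pileup of all 510 sites, 181 (chromosome 1, 27276674 to 27277077). Its pileup was 24.7, 22.5 and 18.9 RPM in RGA-GFP, against 13.2 and 15.0 in wild type libraries 1 and 3. JAZ1 had 19.4, 17.8 and 14.9 in RGA-GFP and 8.89 in wild type library 1 (chromosome 1, 6620687 to 6621312). JAZ10 had 16.6, 15.6 and 14.2 in RGA-GFP and 9.19 and 10.0 in wild type libraries 1 and 3 (chromosome 5, 4220940 to 4221344). The genotypes did not overlap at these sites, although the pooled folds were only 1.54, 1.59 and 1.57.

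JAZ3 differed in having the highest pooled fold of the group, 2.11, with 17.4, 16.4 and 13.8 RPM in RGA-GFP and 7.79 in wild type library 1 (chromosome 3, 6119392 to 6120044). JAZ2 stood at 1.47, and JAZ9 had a pair of shared peaks at 1.38 and 1.53. At JAZ2 the genotypes overlapped in the single-list fold, with 2.08 in RGA-GFP library 3 and 2.15 in wild type library 1. Of the genes of jasmonate synthesis and the MYC factors that JAZ proteins bind, 3 of 10 had a shared peak, and 0 of 10 without library 1. They were MYC2, the main activator of the pathway, at a pooled fold of 1.60, and AOS and LOX4. AOS, an enzyme of jasmonate synthesis, had 1.79. LOX4, a lipoxygenase gene, had a pair of shared peaks (1.46 and 1.3) with the same strongest peak in RGA-GFP lists 2 and 3 and wild type list 1. At both LOX4 peaks the wild type single-list fold of 2.07 lay above all RGA-GFP folds.

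Early stress genes of the zinc finger, WRKY and ERF families had a shared peak at 9 of 24 genes (37.5%), and at 1 of 24 (4.17%) without wild type library 1. The tallest were in the CBF cluster of cold-response regulators. The CBF1 peak (chromosome 4, 13023243 to 13023978) had 26.6, 23.9 and 18.9 RPM in RGA-GFP and 7.69 in wild type library 1, with a pooled fold of 2.23. A peak in the windows of CBF2 and CBF3 alike (chromosome 4, 13017700 to 13018478) had 26.02, 23.4 and 19.4 in RGA-GFP and 7.79 in wild type library 1, with a pooled fold of 2.15. The 3 genes are close copies in tandem, so reads may be split between them.

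The rest of the early stress list had lower pooled folds. ERF5, an ethylene response factor gene, had 1.62, with 19.6, 16.5 and 14.9 RPM in RGA-GFP and 10.3 in wild type library 1. ZAT12 and ZAT10, zinc finger genes induced by many stresses, had 1.86 and 1.45, AZF2 had 1.58, and ERF4, a repressor of the ERF family, had 1.44. At AZF2 the genotypes overlapped in RPM, with 9.67 in RGA-GFP library 3 and 9.75 in wild type library 3. WRKY11 had a pair of shared peaks at 1.26 and 1.42 that met the same wild type peak. A grouping by annotation words was chosen after the values were seen and used all wild type libraries. In it AP2/ERF and CBF factors had a shared peak at 14 of 58 genes (24.1%) and WRKY factors at 3 of 28 (10.7%).

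Light signalling genes had a shared peak at 5 of 17 genes (29.4%). PIF4, PIF5 and PIF7 encode phytochrome-interacting factors, bHLH proteins of growth that DELLA proteins bind. PIF4 had 17.2, 16.4 and 13.3 RPM in RGA-GFP and 6.29 in wild type library 1, with a pooled fold of 2.25 (chromosome 2, 17885850 to 17886704). PIF5 had 16.6, 16.5 and 12.2 in RGA-GFP and 6.29 in wild type library 1, with 2.09 (chromosome 3, 21830153 to 21831429). PIF7 and the photoreceptor gene PHYB had pooled folds of 1.86 and 1.87, and HFR1, whose product binds and blocks PIF proteins, had 1.5. The peak in the window of HFR1 lay nearer to AT1G02350. At all 5 the wild type peak was in library 1 alone, the library that supplied most shared peaks, so without it the count was 0 of 17.

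With all wild type libraries, genes nearer to gibberellin action were shared at rates close to the 8.44% of all genes or resting on few genes. Of 23 DELLA and gibberellin genes with a pooled peak, RGA and SCL3 had a shared one (8.70%), also without library 1. SCL3, a GRAS gene whose product counters DELLA proteins, had 29.6, 24.8 and 21.5 RPM in RGA-GFP and 7.39 and 9.0 in wild type libraries 1 and 3 (chromosome 1, 18680659 to 18681716). Its ratio of mean pileups, 3.09, was the highest of all 510 sites. Of 9 INDETERMINATE DOMAIN genes, IDD1 and IDD5 had a shared peak (22.2%), also without library 1. Without that library the share of all genes was 2.70%, so both lists, with 2 genes each, then lay above it. IDD1 had 20.8, 18.7 and 16.8 in RGA-GFP and 6.49 and 10.5 in wild type libraries 1 and 3, and a pooled fold of 2.31, whereas IDD5 had 16.2, 16.6 and 13.3 in RGA-GFP and 8.59 and 7.15 in wild type libraries 1 and 2, and a pooled fold of 1.49.

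Flower and meristem regulators had a shared peak at 4 of 24 genes (16.7%), and at 2 of 24 (8.33%) without library 1. SEP3, a MADS-box gene of floral organ identity, had 24.0, 22.2 and 19.1 RPM in RGA-GFP and 8.19 and 8.50 in wild type libraries 1 and 3, with a pooled fold of 1.91 (chromosome 1, 8598406 to 8599042). CLV1, the receptor kinase gene that limits the shoot stem cell pool, had 20.8, 18.9 and 15.7 in RGA-GFP and 7.59 in wild type library 1, with 2.07. AP3 and AP2, organ identity genes, had pooled folds of 2.02 and 1.71. The groups did not overlap at SEP3 or CLV1.

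Aux/IAA and auxin response factor genes had a shared peak at 4 of 20 (20%), all of them Aux/IAA repressors, and at 0 of 20 without library 1. IAA4 had 22.9, 20.0 and 17.9 RPM in RGA-GFP and 9.69 in wild type library 1, with a pooled fold of 2.06 (chromosome 5, 17549816 to 17550430), and IAA2, IAA9 and IAA16 had 1.54, 1.68 and 1.43. Cell cycle genes had 3 of 18 (16.7%), and 1 of 18 without library 1. These were RBR1, the retinoblastoma gene, at 1.88, the D-type cyclin gene CYCD3;1 at 2.22 and the kinase inhibitor gene KRP6 at 1.58. At KRP6 the genotypes overlapped in RPM, with 8.60 in RGA-GFP library 3 and 9.50 in wild type library 3. At CYCD3;1 they overlapped in the single-list fold, with 1.92, 2.22 and 2.04 in RGA-GFP and 2.05 in wild type library 1.

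Clock genes had 2 of 13 (15.4%), CCA1 at 1.80 and PRR5 at 1.83. Touch and calmodulin genes had 1 of 5, CAM3 at 1.59. Photosynthesis genes had 2 of 18 (11.1%), the antenna gene LHCB4.1 at 1.66 and the Rubisco gene RBCS1A at 1.76. At LHCB4.1 the single-list fold was 3.25 in wild type library 3, above the 2.59, 2.82 and 2.67 in RGA-GFP. Ubiquitin, actin, tubulin and other constant genes had 1 of 15 (6.67%), UBQ11, and brassinosteroid and growth bHLH genes had 1 of 16 (6.25%), the cytochrome gene ROT3 at 1.89. Heat shock genes had 0 of 5. Without library 1, clock genes and touch and calmodulin genes had none, and the counts of the other 4 lists were the same. The shares in these 6 lists rest on 0 to 2 genes each, so none can be placed above or below 8.44% with any precision.

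**Figure D5:**
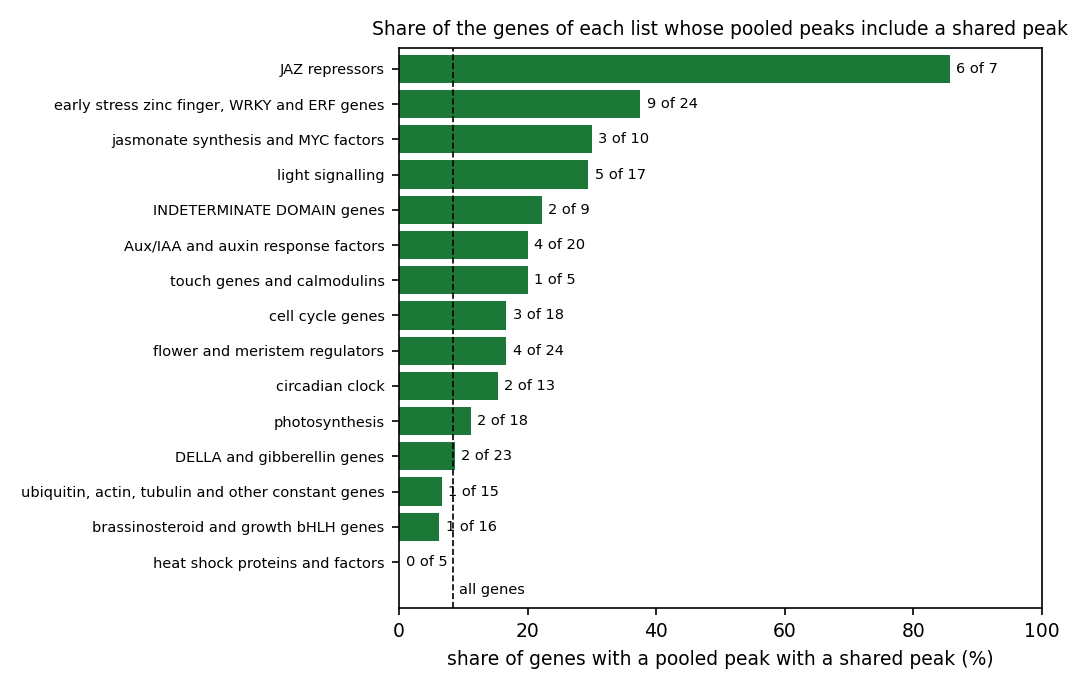
Bars give, for each of 15 gene lists, the share (%) of genes with a pooled peak that have a shared peak in the authors' window, with the counts beside them; the dashed line is the 8.44% of all genes. JAZ repressors stand at 6 of 7 and early stress genes at 9 of 24, while DELLA and gibberellin genes, at 2 of 23, lie near the line; without wild type library 1 these are 2 of 7, 1 of 24 and 2 of 23, and the share of all genes is 2.70%.

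Other groups were counted by words in the annotation after the values were seen, with all wild type libraries. Their shares carry no test and stand beside the 8.44% of all genes with a pooled peak. TCP factors, regulators of growth, had a shared peak at 5 of 16 genes (31.3%), phytochrome and phytochrome-interacting genes at 6 of 17 (35.3%) and arabinogalactan proteins at 5 of 23 (21.7%). The phytochrome group repeats PIF4, PIF5, PIF7 and PHYB of the light signalling list, where the wild type peak was in library 1 alone. The counts were 5 of 38 for the lectin family (13.2%), 7 of 56 for bHLH factors (12.5%) and 5 of 94 for ribosomal proteins (5.32%). Genes with the word kinase in the annotation, which takes in kinases of nucleotides as well as of proteins, had 44 of 470 (9.36%). The TCP peaks had a median pooled fold of 1.67 and those at arabinogalactan genes 1.43.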

How the data were processed

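Peak lists of 3 RGA-GFP and 3 wild type libraries, a pooled list and a gene table were used, and samples were grouped by their titles. Per the submitters' processing notes, Bowtie2, SAMtools and MACS2 2.0.10 were used on the TAIR10 build. Per the file headers, peaks were called with MACS 2.0.10.20130915, at a q of 0.05 for a genome of 90 Mb effective size, from tags lengthened to 300 bp of which 1 was kept per position. Each library was called without a control against its own background within 10000 bp, and the combined RGA-GFP libraries against the combined wild type libraries (39204769 and 21323289 tags kept) with backgrounds of 1000 and 10000 bp, the larger set scaled down. The deposited pileup is a signal in extended tags, the deposited fold is a ratio of pileup to background, the deposited significance is the −log10 of the q-value, and the score in the authors' second copy of each list repeats it. The copies held the same peaks in 7 of 7 pairs.

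Overlaps were computed in Python 3.11.15 with pandas 2.3.3 and NumPy 2.4.6 and checked on simulated intervals. Where several peaks of a list met a pooled peak, the strongest was taken. Pileups of single lists were divided by the tags kept. The implied wild type level is (pileup + 1) divided by the fold, minus 1, which inverts the caller's ratio; above the genome-wide minimum it came within 0.02 of a whole number at 92.5% of shared and 83.3% of remaining peaks. It is the larger of the summit pileup and the local background of wild type. Genes were assigned by the authors' deposited table, whose windows, per the file headers, need an overlap of 50 bp; 13259 of its 13426 genes matched RefSeq TAIR10.1, used only for names and for which gene lies nearest.

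RGA-GFP libraries, not peaks, were the replicates of the tests. Genes named are the 10 shared peaks of highest and the 5 of lowest pooled fold, the 10 of highest mean wild type fold among those in all 3 wild type lists, the 3 peaks just inside and just outside the rule, the genes of 15 lists and RGA. AGL44, the sites with ratios below 1, the peaks missing from an RGA-GFP list, SMT2 and the longest peak were named after their values were seen. The sites and lists were chosen with earlier results of these data known. Alternatives changed the overlap, the q threshold, the number of wild type lists and the libraries used. Sequence motifs, exons and introns were not analysed here.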

Additional observations from a re-analysis of the deposited data

How the results depend on the processing

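The number of shared peaks depended on the wild type threshold and on wild type library 1. It was 503 with an overlap of 50 bp, 458 with the wild type summit inside the pooled peak and 487 with a wild type −log10 q of at least 3, but 91 at a wild type −log10 q of at least 10, 231 at a pooled −log10 q of at least 10 and 111 with at least 2 wild type lists. Leaving out a wild type library gave 164 to 504, with 164 where library 1 was left out. Genes with a shared peak numbered 116, 338 and 157 under the last 3 thresholds and 230 to 710 without a library (230 without library 1). The median pooled fold was 1.63, 1.88 and 1.62 under those thresholds and 1.66 to 1.69 without a library, and the median length 560, 653 and 579 bp, and 579 to 618 bp without a library (95% intervals of the medians over all shared peaks 1.67 to 1.73 and 579 to 641 bp). Those intervals take peaks as units and do not cover differences between libraries. Without library 1 the median pooled fold, 1.66, lay below its interval. The cause of the changes between settings was not tested.

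The differences from the remaining peaks in the RGA-GFP lists had the same direction under all 12 alternatives: 1.32 to 14.9 percentage points in the share found, 0.766 to 1.69 in fold and 4.63 to 7.90 in RPM. With 1 RGA-GFP library left out, the smallest p of the exact test is 0.5. Under each alternative the pooled list was still the one called from all 3 RGA-GFP libraries, which favours that direction. Between genotypes, no paired analysis was possible because the result comes from no test: the rule itself set the wild type values at the shared sites. The replicate numbers carry no stated batch. The sign-flip tests, by contrast, took the difference between shared and remaining peaks within each RGA-GFP library. A wild type peak needed 5.89, 6.47 and 8.0 RPM in libraries 1, 2 and 3, so a pooled peak without one is not shown to lack wild type signal.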
